A study of Mus musculus with 18 samples.

Results

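The CD8 T sort and the dendritic sort of MC38 tumours under anti-PD-1 alone were set side by side in 6 bulk RNA libraries, 3 for each sort, of the 18 in the series. The members are every library of these 2 sorts that received anti-PD-1 without D18, the agent that the study's other groups received in addition, and the genes described are lineage genes of the sorts together with the groups that go with them. MC38 is a mouse colon carcinoma line, and anti-PD-1 is an antibody that blocks the inhibitory receptor PD-1 of T cells. Female C57BL/6 mice, 6 weeks old, carried subcutaneous tumours, were pooled, and were divided into groups once the tumours averaged 100 mm3. All 6 libraries come from mice that received 200 µg of the antibody per mouse, injected intraperitoneally 2 times a week for 2 weeks, so this comparison holds no untreated tumour. Cells were sorted by flow cytometry into lysis buffer and made into Smart-Seq2 libraries, a full-length cDNA method that keeps no strand and carries no molecular identifiers. The sources used here do not give the gates of the sorts. The labels do not say that replicates came from separate mice, so p-values measure only the spread between these samples, which may be technical.

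A CD8+ T cell reads peptides on MHC class I with a T cell receptor whose signal leaves through the CD3 chains and the kinases Lck and Zap70, and it kills with granzymes and perforin. A dendritic cell takes up antigen, loads peptides on MHC class II molecules with the help of the invariant chain Cd74 and the H2-DM chaperone, and shows them to T cells. Macrophages, which are frequent in tumours, also carry MHC class II, and are told apart by complement C1q, Adgre1, Apoe and lysosomal enzymes.

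The libraries were shallow. The CD8 T libraries 1, 2 and 3 held 78210, 189711 and 143466 reads, and the dendritic libraries 59479, 222402 and 171025. Of these, mitochondrial transcripts took between 2.39% (dendritic library 1) and 71.9% (dendritic library 2). A gene with no read could still stand at up to 3 reads (95% confidence), which is 13.5 to 50.4 CPM (reads scaled to a common total) across the 6 libraries. This limit covers counting error only.

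The 2 libraries numbered 3 stood apart from the rest. Over the 1474 genes tested, the log2 levels of CD8 T library 3 and dendritic library 3 correlated at 0.95, whereas the other 14 pairs of libraries, including pairs of the same sort, lay between 0.287 and 0.708. The chi-square per degree of freedom over nuclear genes was 1.11 for the pair numbered 3 (3889 genes, chi-square p = 2.17e-06). It was 2.53 to 12.2 for the other pairs (2172 to 4640 genes). Gene sets and depths differ between pairs, so these values are not on one common set. Only 2.85% of the tested genes (42 of 1474) differed by over 2-fold between the libraries numbered 3, against 45.9% (676) between those numbered 1 and 45.8% (675) between those numbered 2. The mitochondrial transcripts mt-Atp6, mt-Co2 and mt-Co3 summed to 196 reads in CD8 T library 3 and 215 in dendritic library 3, and to 0 in the other 4 libraries. The 6 libraries of the same sorts from mice given D18 as well also held them (33 to 334 reads), so among these 12 libraries the 0 of numbers 1 and 2 under anti-PD-1 alone was the exception. Replicate numbers 1 and 2 are therefore treated as one set and number 3 as another, and the list medians and main gene results are given with all 6 libraries and without both libraries numbered 3. The sources used here do not say whether the libraries numbered 3 share a source.

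**Figure D1:**
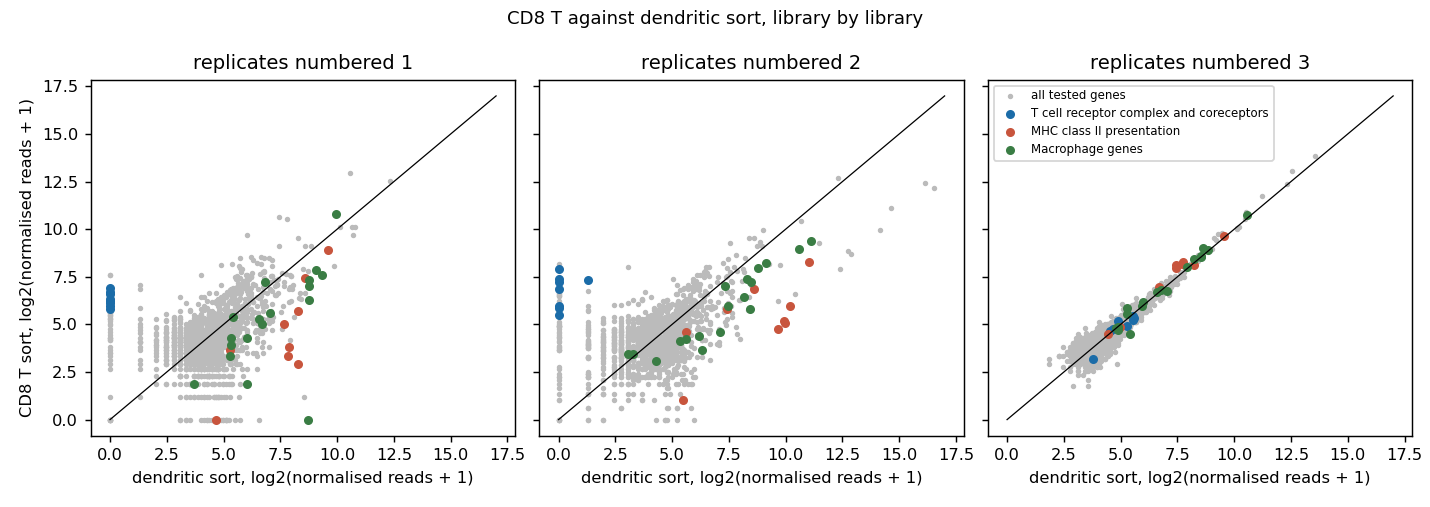
Normalised reads of the 1474 tested genes in the CD8 T library (vertical axis) against the dendritic library (horizontal axis) of the same replicate number, both as log2(normalised reads + 1); the line marks equal levels. T cell receptor genes (blue) lie at or near the left edge for numbers 1 and 2, and all coloured genes lie close to the line for number 3.

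With all 6 libraries, the main test called no gene different between the sorts. The test with limma on log2(normalised reads + 1) called 0% of 1474 genes higher in the CD8 T sort and 0% higher in the dendritic sort at a Benjamini-Hochberg adjusted p under 0.05, and the smallest adjusted p was 0.595. At an unadjusted p under 0.05 there were 109 genes, 57 higher in the CD8 T sort (3.87%) and 52 higher in the dendritic sort (3.53%). Limma-voom with quality weights also called 0 genes, with 55 at an unadjusted p under 0.05. Without both libraries numbered 3, limma called 13 of 1305 genes higher in the CD8 T sort (0.996%) and 2 higher in the dendritic sort (0.153%). Voom on the same 4 libraries called 0, with 200 genes at an unadjusted p under 0.05 and a smallest adjusted p of 0.0552. Leaving out dendritic library 3 alone gave 22 genes higher in the CD8 T sort (1.62% of 1358) and 0 higher in the dendritic sort, and 13 genes were called both there and among the 15. With no filter on low genes the 6 libraries gave 28 genes (0.205% of 13680) and 8 genes (0.0585%).

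The 15 genes called without both libraries numbered 3 were lineage genes of a T cell on one side and MHC class II and a macrophage protease on the other. On the CD8 T side they were the receptor genes Cd3g, Trac, Trbc2, Cd8a and Cd8b1, the signalling genes Lck and Sh2d2a, the granule genes Nkg7 and Gzmb, the chemokine gene Ccl5, the costimulatory receptor Tnfrsf9 (4-1BB), and the lymphocyte membrane genes Ms4a4b and Ptprcap. On the dendritic side they were H2-Eb1, an MHC class II beta chain, and Mmp12, the macrophage elastase. The limma log2 differences of the 15 reached 7.71 (Nkg7, adjusted p = 0.00592) on the CD8 T side and -6.15 (Mmp12, adjusted p = 0.0431) on the dendritic side. Nkg7, Gzmb, Ccl5, Lck, Sh2d2a, Cd3g, Trac, Trbc2 and Cd8a had no read in the dendritic libraries of this fit. Their dendritic values thus had no spread. Cd8b1, Tnfrsf9, Ms4a4b and Ptprcap had few reads there, as Mmp12 had in the CD8 T libraries. All of these genes passed the filter on low genes mainly through their high sort, so the direction of their calls follows from the filter. Voom on the same libraries called 0 of the 15. The calls are given as a description.

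The CD3 chains and the CD8 coreceptor were used to check the label of the CD8 T sort. They separated the sorts in libraries 1 and 2, and not in those numbered 3. Cd3e, the epsilon chain of CD3 (mm10 chr9:44998740-45009627, minus strand), had 47, 116 and 30 reads in CD8 T libraries 1, 2 and 3 and 0, 0 and 34 in dendritic libraries 1, 2 and 3. Cd8a, the alpha chain of the coreceptor (chr6:71373427-71379173, plus strand), had 52, 456 and 45 reads in the CD8 T libraries and 0, 0 and 71 in the dendritic ones. Both genes were read in every CD8 T library, and in the dendritic sort all their reads lay in library 3. With 6 libraries the log2 difference was 4.02 ± 1.24 (SE, n = 3 per sort) for Cd3e and 4.57 ± 1.61 for Cd8a. The limma difference without both libraries numbered 3 was 5.79 ± 1.08 for Cd3e (adjusted p = 0.0668) and 6.84 ± 0.88 for Cd8a (adjusted p = 0.0287). Those fitted differences depend on the pseudocount where a sort has no read. From the reads themselves, and the floor of 3 reads over the 2 dendritic libraries, Cd3e was at least 27.5-fold higher and Cd8a at least 85.7-fold higher in CD8 T libraries 1 and 2.

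The other chains of the receptor had the same distribution over libraries. Cd3g (chr9:44969572-44980431, minus strand) had 92, 310 and 49 reads in the CD8 T libraries and 0, 0 and 74 in the dendritic ones. Cd3d (chr9:44981786-44987339, plus strand), its neighbour, had 78, 109 and 32 against 0, 0 and 38. Trac, the constant region of the receptor alpha chain, had 61, 222 and 53 against 0, 0 and 70. For each of these genes the highest dendritic value was that of library 3, which was within 0.25 on the log2 scale of CD8 T library 3. Trbc2, a constant region of the beta chain, had 74, 287 and 44 reads against 0, 0 and 44, and its neighbour Trbc1 had 15, 50 and 7 against 0, 0 and 11. The constant regions Trbc1 and Trbc2 are nearly identical copies, so the split of reads between them is uncertain. Cd8b1, the coreceptor's beta chain, had 56, 301 and 36 reads against 0, 1 and 58. Its ratio in libraries 1 and 2 was 181 (95% counting interval 32.2 to 7159), since it rests on 1 dendritic read. Cd4, the coreceptor of helper cells, had 0 reads in CD8 T libraries 1 and 2, 4 in CD8 T library 3 and 5 in dendritic library 3.

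Of the 15 genes listed for the receptor and its coreceptors, 15 had reads in some library and 8 were tested with 6 libraries. All 8 differences were positive with a median of 4.30, where 51.7% of all tested genes were positive and the median of all was 0.03. Groups did not overlap, with the CD8 T sort above, for 3 of the 8, against 6.58% of all tested genes. With those numbered 3 left out, 9 were tested, 5 passed the test, and the median was 6.11, or 5.58 with the 8 members without a dendritic read set at their lower bound. Those 8 passed the filter on low genes only through the CD8 T sort, so their sign and much of the median follow from the filter. The same holds for members of the other T cell lists that had no read in dendritic libraries 1 and 2. It holds in the other direction for genes of the dendritic side with few or no reads in CD8 T libraries 1 and 2. Counts and medians of such lists are given as a description. The whole list summed to 8300, 12929 and 3252 CPM over nuclear reads (mitochondrial reads left out of the total) in the CD8 T libraries and to 0, 16 and 3474 in the dendritic ones. Fewer cells of a type and less RNA per cell cannot be told apart in such bulk libraries.

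**Figure D2:**
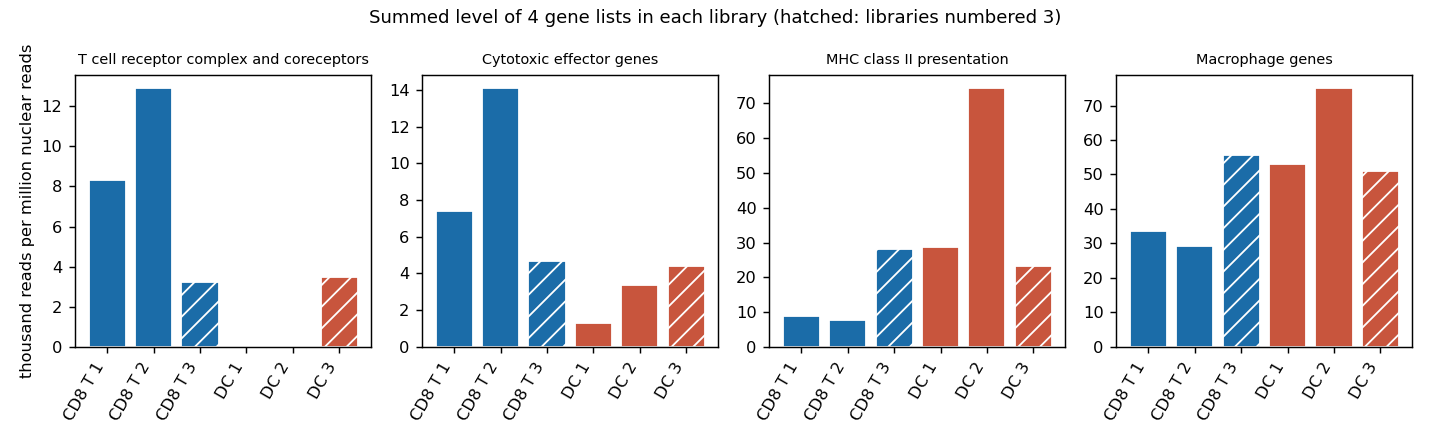
Summed reads of 4 gene lists as CPM over nuclear reads divided by 1000 (vertical axis) in each library (horizontal axis), CD8 T sort in blue, dendritic sort in red, libraries numbered 3 hatched. The receptor list stands at 0 and 16 CPM in dendritic libraries 1 and 2 and at like heights in both libraries numbered 3, while the macrophage list is high in all 6.

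Signalling genes downstream of the receptor were split in the same way. Lck, the kinase that phosphorylates the CD3 chains, had 79, 183 and 42 reads in the CD8 T libraries and 0, 0 and 46 in the dendritic ones. Zap70, the kinase recruited to them, had 34, 90 and 12 against 0, 0 and 23, and the adaptor Lat had 24, 102 and 18 against 0, 0 and 32. Lck was at least 44.2-fold higher in CD8 T libraries 1 and 2, and it passed the limma test there (log2 difference 6.48 ± 0.94, adjusted p = 0.0356). Zap70 and Lat did not pass (adjusted p = 0.0674 and 0.0749). Sh2d2a, an adaptor that binds Lck, had 70, 171 and 29 reads against 0, 0 and 48 and passed (6.35 ± 1.00, adjusted p = 0.0431). Lcp2 (SLP-76), an adaptor that myeloid cells use as well, had 14, 51 and 19 against 4, 8 and 22, a difference of 0.90 ± 0.47 with 6 libraries. Of the 18 listed signalling genes 8 were tested in each fit, all with a positive difference, and the median was 3.30 with 6 libraries. In the 4 libraries numbered 1 and 2 the median was 4.85, or 4.15 with members at their bound, and 2 passed.

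Cytotoxic genes were among the widest differences between libraries numbered 1 and 2. Nkg7, a membrane protein of cytotoxic granules (chr7:43437073-43438249, plus strand), had 146, 546 and 89 reads in the CD8 T libraries and 0, 0 and 118 in the dendritic ones, at least 117-fold higher in CD8 T libraries 1 and 2. Gzmb, the granule protease granzyme B (chr14:56258838-56262260, minus strand), had 85, 444 and 42 against 0, 0 and 78, at least 89.3-fold higher. Both passed the limma test without the libraries numbered 3 (adjusted p = 0.00592 and 0.0105). Perforin (Prf1), which forms the pores, had 4, 204 and 25 reads against 0, 0 and 32, and Ifng, the gene of interferon gamma, had 5, 143 and 18 against 0, 0 and 22. For these 2 genes CD8 T library 2 was far above library 1, and they did not pass (limma adjusted p = 0.212 and 0.184 without both libraries numbered 3). Gzma, granzyme A, had 0 reads in all 6 libraries.

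Of the 17 listed cytotoxic genes, 2 had at least 4 reads in each dendritic library. Srgn, the granule proteoglycan serglycin that myeloid cells also make, had 164, 411 and 218 reads against 72, 199 and 224, a difference of 0.28 ± 0.43. Cst7, the protease inhibitor cystatin F, had 8, 166 and 22 against 4, 11 and 28, a difference of 1.02 ± 0.79. All 9 tested members had a positive difference, with a median of 3.13. Without both libraries numbered 3 the median was 4.54 (4.64 with bounds) and 2 of 9 passed. Klrd1 (CD94), a receptor that natural killer cells share with activated CD8 T cells, had 32, 147 and 33 reads against 4, 42 and 42. Ncr1, which marks natural killer cells, had 0 reads in all 6 libraries.

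Pdcd1, the gene of PD-1 itself and so of the antibody's target, had 34, 343 and 41 reads in the CD8 T libraries and 0, 0 and 58 in the dendritic ones. It was at least 63.6-fold higher in CD8 T libraries 1 and 2, and did not pass there (limma log2 difference 6.33 ± 1.15, adjusted p = 0.0668). It passed where only dendritic library 3 was left out (adjusted p = 0.00202). The inhibitory receptor Lag3 had 27, 206 and 25 reads against 0, 1 and 33, and Tigit had 8, 120 and 9 against 0, 0 and 26. Each of these receptors was highest in CD8 T library 2. Havcr2 (TIM-3), which myeloid cells carry too, had 1, 53 and 18 reads against 15, 1 and 22, and its direction was opposite in the libraries numbered 1 (-3.36) and 2 (3.56). Tnfrsf9 had 44, 287 and 42 reads against 1, 0 and 78 and passed without both libraries numbered 3 (5.78 ± 0.83, limma adjusted p = 0.0356). Il2rb, the beta chain of the interleukin-2 receptor, had 37, 191 and 25 against 0, 0 and 54. Icos, a costimulatory receptor, was read in CD8 T library 2 (74) and not in CD8 T library 1 (0).

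Transcription factors of T cells had few reads. Ets1, a factor of lymphocytes, had 16, 55 and 17 reads against 0, 0 and 19, at least 12-fold higher in CD8 T libraries 1 and 2. Tcf7 (TCF-1), a factor of naive and stem-like T cells, had 21, 32 and 4 against 0, 0 and 11, and Tox, a factor of chronically stimulated T cells, had 6, 82 and 5 against 0, 0 and 12. Per size factor Tox was higher in CD8 T library 2 than in library 1, and Tcf7 was lower. Of the 13 listed factors 2 were tested, and neither passed the limma test in either fit.

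The rule that names genes by their p-value picked 8 on each side, since none passed with 6 libraries. On the CD8 T side these were Cnn2, Ptprcap, Trbc2, Ctsw, Lck, Ms4a4b, Cd3d and Cxcr6. Cxcr6, a chemokine receptor of resident T cells, had 38, 325 and 38 reads against 0, 0 and 43. It was at least 61.3-fold higher in CD8 T libraries 1 and 2, and its ligand gene Cxcl16 had 8, 32 and 74 reads against 57, 55 and 74, which is 5.53-fold higher in dendritic libraries 1 and 2. Ctsw, a cathepsin of cytotoxic cells, had 36, 175 and 31 against 0, 0 and 35, at least 35.6-fold. Ptprcap, which binds the phosphatase CD45, had 92, 119 and 38 against 0, 1 and 37. Cnn2, a calponin that binds actin, had 67, 127 and 33 against 5, 7 and 45, a ratio of 8.19 in libraries 1 and 2. Ccl5, which attracts T cells and is itself made by them, had 148, 105 and 43 against 0, 0 and 62, at least 42.7-fold.

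**Figure D3:**
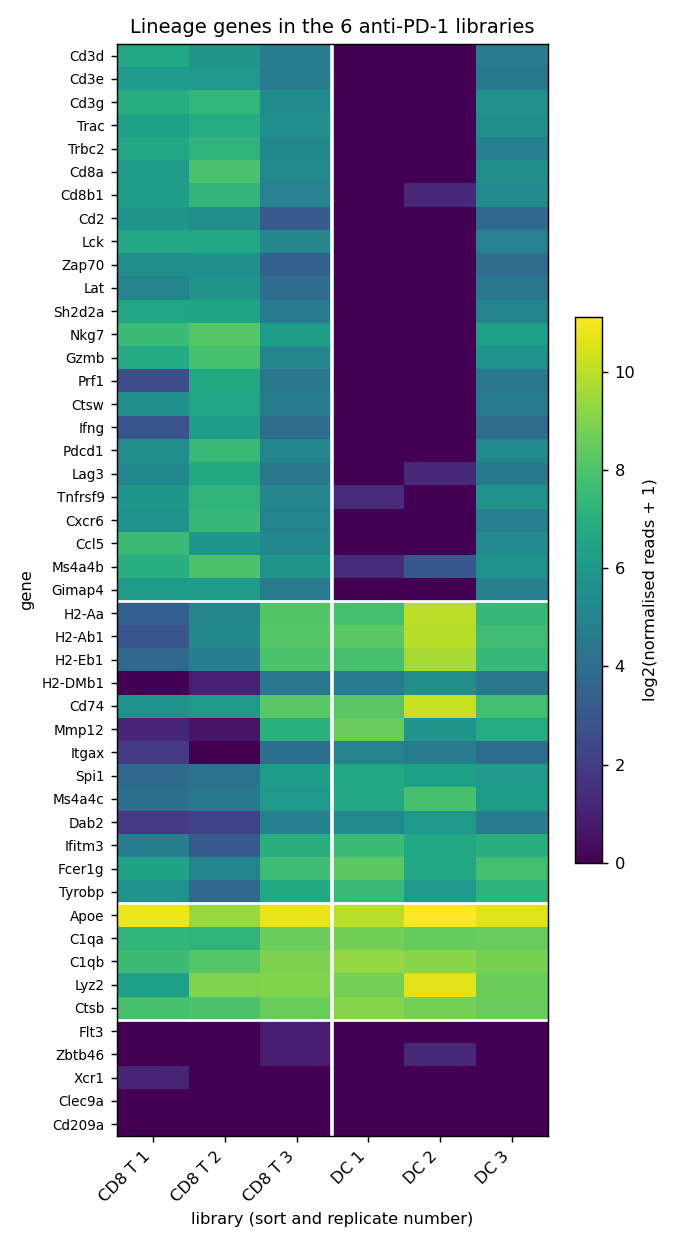
Levels of 47 genes (rows) in the 6 libraries (columns) as log2(normalised reads + 1), with white lines between T cell genes, MHC class II and myeloid genes, macrophage genes and dendritic cell markers. T cell genes are darkest in dendritic libraries 1 and 2, and the dendritic cell markers at the foot are dark throughout. The macrophage genes shown (Apoe, C1qa, C1qb, Lyz2 and Ctsb), part of a longer list, are bright in all 6 libraries.

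MHC class II genes lay on the other side. The class II genes H2-Aa and H2-Ab1 encode the chains of the I-A molecule, and H2-Eb1 encodes the beta chain of I-E. These genes neighbour each other on chromosome 17. Their promoters are known to carry a conserved module that ends in the Y box. The 120 bases before the start of 3 class II genes are shown because these genes were high and low together across libraries. The sequences come from the RefSeq promoter table (GRCm38.p6), are written 5′ to 3′ on the strand of the gene, and have the core of the Y box (TGATTGG, or CCAATCA on the other strand, both strands searched) in capitals. H2-Aa lies at chr17:34287824-34287943 (minus strand), H2-Eb1 at chr17:34305747-34305866 (plus) and H2-DMb1, the beta chain of the chaperone H2-DM, at chr17:34153071-34153190 (plus).
H2-Aa: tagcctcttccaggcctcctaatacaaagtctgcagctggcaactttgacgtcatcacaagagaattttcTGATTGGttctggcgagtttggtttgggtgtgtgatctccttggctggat
H2-Eb1: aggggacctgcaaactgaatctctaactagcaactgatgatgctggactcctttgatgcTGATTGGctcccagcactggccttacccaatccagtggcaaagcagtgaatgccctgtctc
H2-DMb1: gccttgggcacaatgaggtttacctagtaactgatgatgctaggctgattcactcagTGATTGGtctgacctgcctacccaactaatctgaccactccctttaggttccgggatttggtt
The match began 50, 61 and 63 bases before the RefSeq start, which can differ from the gene coordinates given for mm10. All 3 of the genes found in the table held it, of 4 looked up. Of all 32851 promoters in the table, 5.15% held it within 120 bases before the start and 7.82% anywhere in the 300 bases listed.

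H2-Aa (chr17:34282744-34287823, minus strand) had 7, 63 and 342 reads in CD8 T libraries 1, 2 and 3 and 151, 689 and 269 in the dendritic libraries. H2-Ab1 (chr17:34257689-34269419, plus strand) had 5, 67 and 359 against 202, 667 and 326. H2-Eb1 (chr17:34305867-34316674, plus strand) had 10, 49 and 305 against 155, 563 and 268. CD8 T libraries 1 and 2 were the low ones for each gene, and CD8 T library 3 was above dendritic library 3. With 6 libraries the log2 difference of H2-Aa was -2.90 ± 1.29 (SE, limma). Without both libraries numbered 3 the 3 genes were 23.7, 23.8 and 24 times as high in the dendritic sort. H2-Eb1 passed the limma test there (-4.47 ± 0.72, adjusted p = 0.0460), while H2-Aa (-4.65 ± 0.89, adjusted p = 0.0705) and H2-Ab1 (-5.00 ± 0.91, adjusted p = 0.0668) did not.

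Cd74, the invariant chain that guards the class II groove, had 40, 119 and 382 reads in the CD8 T libraries and 204, 810 and 333 in the dendritic ones, 12.6 times as high in dendritic libraries 1 and 2. H2-DMb1 had 0, 2 and 26 against 16, 30 and 32, a ratio of 45.4 (95% counting interval 11.9 to 386) toward the dendritic sort. Ctss, the protease that trims the invariant chain, had 369, 587 and 981 against 519, 1446 and 1177. The loading genes thus lay on the same side as the class II chains, with a smaller ratio for Ctss (4.06). Ciita, the coactivator that switches class II genes on, had 1 read in all, in dendritic library 3. Of the 13 listed genes 9 were tested with 6 libraries, all 9 with a negative difference and a median of -2.07, and for 2 the groups did not overlap with the dendritic sort above (5.63% of all tested genes). In the 4 libraries numbered 1 and 2 the median was -3.35 and 1 of 9 passed. The list summed to 8770, 7812 and 28046 CPM over nuclear reads in the CD8 T libraries and to 28680, 74536 and 23201 in the dendritic ones.

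The markers that define dendritic cells were at or near 0 in the libraries of the dendritic sort. Flt3, the receptor dendritic cells need to develop, had 0 reads in those 3 libraries, and Zbtb46, a transcription factor of classical dendritic cells, had 0, 1 and 0. Xcr1, Clec9a and Cd209a, surface markers of the classical subsets, had 0 reads in all 3. Ccr7, which mature dendritic cells and some T cells use to migrate, had 0, 0 and 4 reads there and 14, 13 and 4 in the CD8 T libraries. Dendritic libraries 1 and 2 were thus marked by class II genes and not by these markers. The floor of 3 reads still allows low levels of the markers. In the libraries numbered 3 the class II list was higher in the CD8 T sort (28046 against 23201 CPM over nuclear reads). Itgax (CD11c), which macrophages share, had 20, 17 and 22 reads in the dendritic sort against 2, 0 and 19, a ratio of 36.5 (95% counting interval 9.43 to 313) in libraries 1 and 2. Spi1 (PU.1), the myeloid transcription factor, had 67, 55 and 96 against 10, 32 and 89, and was 5.74-fold higher in dendritic libraries 1 and 2. Irf8, a factor of dendritic cells that activated T cells also express, had 27, 19 and 56 against 25, 122 and 56, a difference of 0.40 ± 0.42.

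Of the 15 listed core genes of dendritic cells 4 were tested, 1 with a positive and 3 with a negative difference, and the median was -0.94 (-1.42 without both libraries numbered 3). In the list of 10 genes of the cross-presenting subset (cDC1) 3 were tested, and the median was -1.79 (-2.47). Ifi205, a gene of that list, had 0, 0 and 16 reads in the CD8 T libraries and 14, 18 and 7 in the dendritic ones, at least 21.1-fold lower in CD8 T libraries 1 and 2. Naaa, a lysosomal amidase, had 5, 3 and 10 against 10, 27 and 16, without overlap. None of these core and cDC1 genes passed the test in either fit. Other dendritic lists had 1 or 2 tested genes each, too few to place a list on a side. In the list of the cDC2 subset 2 of 9 genes were tested, with a median of 1.12 (1.68 without both libraries numbered 3). They were Ltb, lymphotoxin beta, which lymphocytes make too (67, 74 and 19 reads against 0, 2 and 28), and Sirpa, a myeloid receptor (4, 33 and 33 against 17, 23 and 39). The 2 genes lay in opposite directions without both libraries numbered 3 (4.82 for Ltb and -1.47 for Sirpa). Of 12 genes listed for mature dendritic cells 2 were tested, Ccl5 (4.41 ± 1.55) and Marcks, a cytoskeletal protein (-0.80 ± 0.49), and Ccl5 is the member that was called higher in the CD8 T sort without both libraries numbered 3. For plasmacytoid cells 1 of 6 genes was tested, Bst2, a tetherin induced by interferon (-0.21 ± 0.56).

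Several macrophage genes were high in both sorts. Apoe, a lipid carrier of tissue macrophages, had 1391, 1268 and 2103 reads in the CD8 T libraries and 660, 1529 and 2386 in the dendritic ones. C1qa, a chain of complement C1q, had 123, 286 and 469 against 287, 245 and 580, and Lyz2, lysozyme, had 60, 961 and 626 against 290, 1068 and 611. The ranges of the 2 sorts overlapped for each. The log2 difference of Apoe was -0.24 ± 0.54, with 0.86 between the libraries numbered 1 and -1.73 between those numbered 2, and its sign changed with the scaling (0.24 by CPM over all reads). Spp1, osteopontin, had 0, 164 and 311 reads against 277, 195 and 373, so CD8 T library 1 alone lacked it. Adgre1 (F4/80) had 14, 14 and 26 against 26, 13 and 65.

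Of the 23 macrophage genes 18 were tested with 6 libraries, all with a negative difference, and the median was -0.87. Without both libraries numbered 3 the median was -1.30, with 17 of 18 negative and none passing the limma test, 7 of them at an unadjusted p under 0.05. The list summed to 33598, 29194 and 55540 CPM over nuclear reads in the CD8 T libraries and to 52984, 75223 and 50884 in the dendritic ones. That sum moved with the class II list across the libraries, and its part in the class II difference was not tested. Genes of other cell types had few reads. The B cell list summed to 12, 55 and 14 reads in the CD8 T libraries and 9, 5 and 17 in the dendritic ones, most of them of Ighm, the heavy chain of IgM (6, 52 and 13 against 9, 5 and 13), while Ms4a1 and Cd79a had 0 reads in all 6. The erythroid and platelet list, led by haemoglobin genes, summed to 20, 5 and 73 reads against 10, 4 and 127, and was highest in both libraries numbered 3. The 8 neutrophil genes summed to at most 6 reads in a library, and the 10 epithelial and stromal genes to at most 23.

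The genes named on the dendritic side included Ms4a4c, Cd72, Lgals3, Spi1, Gm2a, Cxcl16 and Pld4. Lgals3, galectin-3, had 75, 145 and 265 reads in the CD8 T libraries and 251, 170 and 343 in the dendritic ones. Gm2a, a lysosomal activator protein, had 19, 83 and 115 against 92, 86 and 148. Cd72 and Pld4, a B cell and myeloid surface protein and a lysosomal nuclease, were 3.92-fold and 4.08-fold higher in dendritic libraries 1 and 2. The dendritic values of Lgals3 and Gm2a were 3.78-fold (Lgals3) and 3.45-fold (Gm2a) higher in libraries 1 and 2. All 17 lysosomal genes were tested and all 17 had a negative difference with 6 libraries, with a median of -0.84 (-1.30 without both libraries numbered 3, 16 of 17 negative). The 5 genes listed for Fc gamma receptors, which bind antibody, and their signalling chain Fcer1g were all negative. Their median was -1.22 (-1.76 without both libraries numbered 3). Of 19 pattern recognition genes 7 were tested, all negative, with a median of -1.93 (-3.06 over 6). That list summed to 40 and 144 reads in CD8 T libraries 1 and 2, against 117 and 225 in dendritic libraries 1 and 2. Without both libraries numbered 3 its members thus passed the filter on low genes mostly through the dendritic sort, and their signs are a description. No member of these 3 lists passed the limma test in either fit.

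Myeloid chemokines and cytokines lay on the dendritic side as well, unevenly between libraries. Tgfbi, a matrix protein of macrophages, had 13, 116 and 207 reads in the CD8 T libraries and 162, 73 and 271 in the dendritic ones. Ccl2, which recruits monocytes, had 20, 7 and 35 against 64, 5 and 65, and Ccl12, a related chemokine, had 0, 23 and 62 against 61, 4 and 77. Ccl2 and Ccl12 were low in dendritic library 2, so the sorts overlapped. Of the 14 listed genes 8 were tested with 6 libraries, all with a negative difference and a median of -1.27 (-1.92 without both libraries numbered 3), and none passed.

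Mmp12 (chr9:7344381-7369499, plus strand) had 1, 1 and 166 reads in the CD8 T libraries and 246, 38 and 177 in the dendritic ones. It was thus nearly absent from CD8 T libraries 1 and 2 and present in the other 4. Its ratio in libraries 1 and 2 was 280 (95% counting interval 76.9 to 2327) toward the dendritic sort. Dab2, an endocytic adaptor, had 2, 7 and 35 reads against 26, 44 and 39 and did not pass (-3.57 ± 0.62, limma adjusted p = 0.0604).

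**Figure D4:**
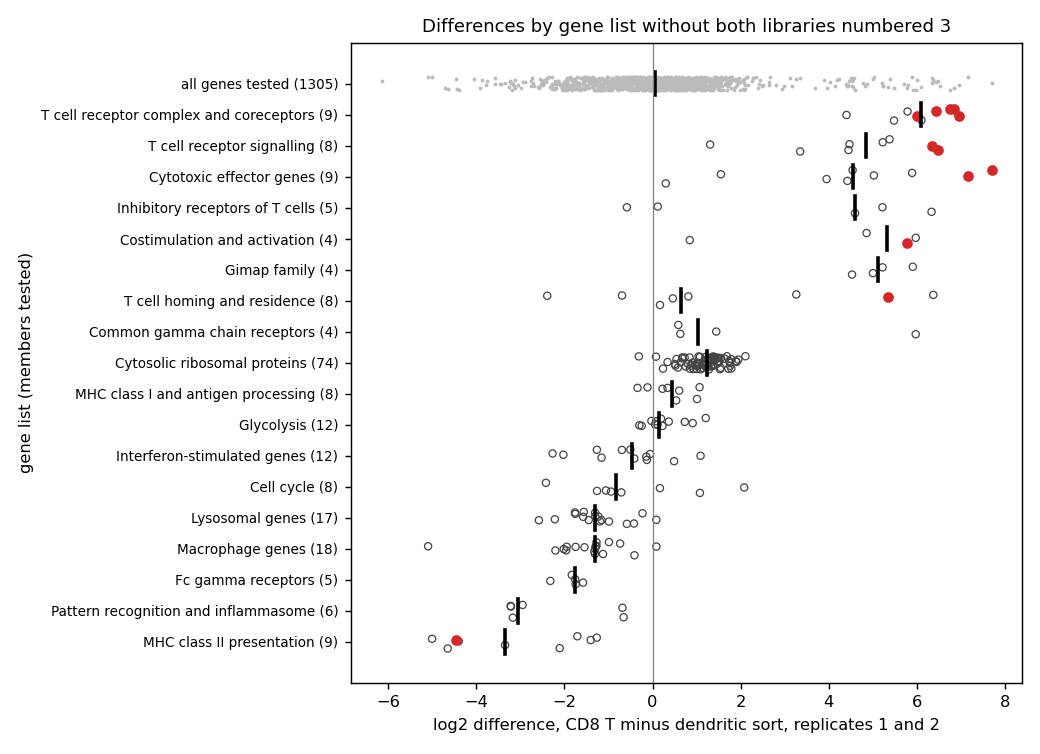
Log2 difference between the sorts (horizontal axis, CD8 T minus dendritic) without both libraries numbered 3, for members of 18 lists (rows, with the number tested) and all 1305 genes; red points passed the limma test and black bars are medians. The T cell lists lie right of 0 with medians of 6.11 (receptor complex) and 4.85 (signalling), and the class II list lies left with -3.35.

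Chains that carry immunoreceptor tyrosine-based activation motifs divided by lineage. The CD3 chains belong to the T cell receptor, and Fcer1g and Tyrobp (DAP12) serve Fc receptors and other myeloid receptors. Fcer1g had 64, 60 and 247 reads in the CD8 T libraries and 213, 69 and 333 in the dendritic ones, and Tyrobp had 38, 24 and 133 against 122, 43 and 222. Both were higher in the dendritic sort in libraries 1 and 2 (4.49-fold and 5.26-fold), in the opposite direction to Cd3d, Cd3e and Cd3g. Neither passed the limma test (adjusted p = 0.331 and 0.330 without both libraries numbered 3). Summed over the 8 listed chains, the level was 4839, 4143 and 4768 CPM over nuclear reads in the CD8 T libraries and 5770, 1790 and 5340 in the dendritic ones, so the ranges of the sorts overlapped.

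Paralogues of a family lay on opposite sides of the comparison in 2 gene families. These families were picked out after their values were seen. Some of their members are near copies, so how the authors' counting split reads between those is uncertain. Ms4a4b, a membrane protein of T cells (chr19:11443553-11467055, plus strand), had 103, 490 and 67 reads in CD8 T libraries 1, 2 and 3 and 1, 5 and 78 in the dendritic libraries (limma log2 difference 5.34 ± 0.76 without both libraries numbered 3). Its neighbour Ms4a4c (chr19:11404770-11427246, plus strand) had 12, 41 and 78 against 69, 160 and 107, 8.53-fold higher in dendritic libraries 1 and 2. Ms4a6c (3, 7 and 29 against 18, 41 and 30) and the macrophage gene Ms4a7 (37, 44 and 135 against 88, 94 and 171) lay with Ms4a4c. All 7 listed Ms4a genes were tested, 2 with a positive difference, where 51.7% of all tested genes were positive. Of the 7, Ms4a4b alone passed the limma test without both libraries numbered 3 (adjusted p = 0.0356).

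The interferon-inducible p200 family, a cluster of DNA sensors and nuclear factors on chromosome 1, had members of both directions as well. Ifi204 had 8, 10 and 27 reads in the CD8 T libraries and 24, 33 and 46 in the dendritic ones, Ifi207 had 1, 1 and 11 against 16, 25 and 17, and Ifi211 had 6, 17 and 19 against 18, 36 and 40. On the other side, Ifi206 had 17, 39 and 22 against 8, 9 and 25, and Ifi214 had 6, 24 and 7 against 1, 0 and 8. Of 12 members 9 were tested, 4 positive and 5 negative, and none passed. Of all tested genes 51.7% were positive, so the split of signs alone does not set this family apart. Interferon response elements are known in promoters of this family, so the 120 bases before the start of 2 genes of each direction are shown. They are written 5′ to 3′ on the gene's strand from the RefSeq promoter table (GRCm38.p6), with the element (GAAA repeated with any 2 bases between, both strands searched) in capitals. Ifi207 lies at chr1:173741810-173741929, Ifi211 at chr1:173913047-173913166, Ifi206 at chr1:173491319-173491438 and Ifi214 at chr1:173535958-173536077, all on the minus strand.
Ifi207: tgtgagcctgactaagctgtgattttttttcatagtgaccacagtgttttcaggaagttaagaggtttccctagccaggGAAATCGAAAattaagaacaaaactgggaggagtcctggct
Ifi211: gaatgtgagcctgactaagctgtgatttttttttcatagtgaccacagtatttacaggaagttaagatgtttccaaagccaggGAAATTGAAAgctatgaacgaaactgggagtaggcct
Ifi206: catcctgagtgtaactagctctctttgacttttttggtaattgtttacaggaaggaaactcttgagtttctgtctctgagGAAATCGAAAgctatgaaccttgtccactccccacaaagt
Ifi214: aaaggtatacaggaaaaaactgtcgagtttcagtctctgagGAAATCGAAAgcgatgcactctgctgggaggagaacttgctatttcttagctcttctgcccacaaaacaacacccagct
The match was present on both sides of the comparison, between 37 and 79 bases before the start in the 4 shown. Of 8 genes looked up 7 were in the table and 6 held it in at least 1 promoter. Of all 32851 promoters, each counted singly, 1.22% held it within 120 bases before the start. Some promoters of the family are near copies of each other, so the 6 are not separate observations to set against that share. The gene in the table without the match was Ifi205, which lay on the dendritic side (-4.43 without both libraries numbered 3). Ifi214 was below the filter on low genes and was not tested.

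**Figure D5:**
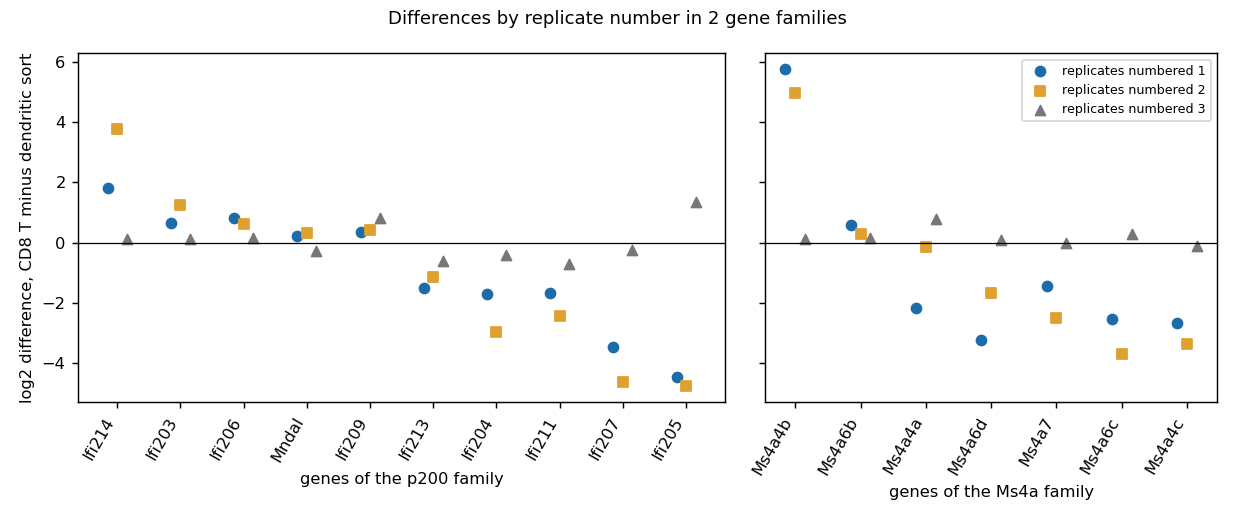
Log2 difference between the sorts (vertical axis, CD8 T minus dendritic, on log2(normalised reads + 1)) for each replicate number, gene by gene (horizontal axis) in the p200 and Ms4a families. Circles and squares, numbers 1 and 2, lie above 0 for Ms4a4b and below it for Ms4a4c, and the triangles of number 3 lie nearer 0.

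MHC class I genes, which every nucleated cell carries, showed smaller differences. B2m, the light chain, had 848, 2590 and 1267 reads against 738, 1129 and 1719, a difference of -0.13 ± 0.41. H2-K1, a heavy chain, had 431, 1235 and 555 against 257, 318 and 725 (0.33 ± 0.35). The largest difference of the 8 tested was that of Psmb8, an immunoproteasome subunit, which had 75, 203 and 80 reads against 29, 41 and 51 (0.98 ± 0.42) and did not overlap between the sorts. The list's median was 0.23 (0.44 without both libraries numbered 3), and none of the 8 passed. Glycolysis genes had a median of 0.10 over 12 tested (0.15), interferon-stimulated genes -0.29 over 13 (-0.46 over 12), and cell cycle genes -0.70 over 9 (-0.83 over 8), with none passing in either fit.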

How the data were processed

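RNA of 3 CD8 T and 3 dendritic sort libraries under anti-PD-1 was analysed, grouped by the labels' cell type, treatment and replicate number. Per the submitters' processing notes, alignment used STAR 2.4.0 and mm10, gene counts came from HTSeq 0.6.1, and DESeq2 was used. The deposited tables hold log2 values made by the authors, and the sources used here do not give the transform. Each table has 46983 genes. Inverting a variance-stabilising form, in units of each column's smallest nonzero value, gave whole reads for 100% of values (tolerance 0.001). Symbols and places came from GENCODE vM21 by gene ID (98.9% matched). The 2 tables were joined on gene ID and divided by median-ratio size factors over 3337 genes with reads in all 6 libraries. Genes with a mean of at least 10 normalised reads were tested with limma 3.58.1 (trend, robust) in R 4.3.3 on log2(normalised reads + 1), with Benjamini-Hochberg adjustment over all tested genes. A log2 difference is on that scale and understates the change of low genes. Fold values from libraries 1 and 2 are ratios of summed reads over summed size factors, with exact (Clopper-Pearson) 95% counting intervals where a side has 1 to 3 reads. With no strand in the libraries, reads of overlapping genes cannot be told apart. The named genes are the 8 of smallest p on each side with a mean of at least 50 normalised reads on that side, since none passed the test; 1 of them is not reported here. Members, lists and alternatives were chosen with earlier results of these data known. On simulated counts at these depths, a dispersion of 1 let the test call 42% of genes changed 16-fold, and a dispersion of 0.2 called 100%. At 0.2 the test also called 6 unchanged genes. All simulated libraries of a sort had the same means, so the likeness of the libraries numbered 3 was not simulated. The dispersion of the data was not estimated, so these shares do not give the power of the test here. The alternatives left out libraries, or changed the scaling, filter, pseudocount, block or tool. Other libraries of the series were not used here beyond an alternative with D18.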

Additional observations from a re-analysis of the deposited data

How the results depend on the processing

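With 6 libraries the counts of genes higher in the CD8 T and in the dendritic sort stayed at 0 and 0 under scaling by all reads, by nuclear reads or by quantiles, under voom, a minimum of 50, a pseudocount of 0.1 or 10, a term for number 3 against 1 and 2, a fit with the D18 libraries and a minimum absolute log2 difference of 2. They were 28 and 8 with no filter on low genes, and 13 and 2 without both libraries numbered 3 (2 of those 15 genes were also called with no filter). Leaving out 1 library at a time gave 0 to 22 and 0 to 0, the 22 without dendritic library 3. Deviations from the sort means correlated at 0.16, 0.30 and -0.22 between libraries of the same number. Between a library numbered 1 and one numbered 2 they correlated at -0.31 and -0.34. By deviations, CD8 T library 1 correlated best with dendritic library 3 (0.28). Deviations within a sort sum to 0, so these values do not settle whether replicate numbers pair the libraries. The replicate block left 0 and 0 genes with 6 libraries, with 124 at an unadjusted limma p under 0.05. Alternatives chosen after seeing the data, all without both libraries numbered 3, gave 25 and 3 by all reads, 16 and 3 by nuclear reads, 16 and 2 by quantiles, 0 and 0 by voom, 65 and 35 with no filter, 8 and 5 at a minimum of 50, 38 and 8 at a pseudocount of 0.1, 30 and 3 at 10, 63 and 52 with the replicate block, and 27 and 0 with the D18 libraries. The median of all genes moved to 0.48 by all reads with 6 libraries and to 0.80 with 4. Apoe turned from -0.24 to 0.24 by all reads, 0.44 by quantiles, 0.0055 by voom, and ranged from -0.53 to 0.24 when 1 library was left out (0.24 without CD8 T library 2, 0.05 without dendritic library 2). The cause of these moves was not tested. For the 32 genes followed, 522 values kept direction and side of the threshold, 38 newly passed it and 5 reversed. Of the list medians, 443 moved by less than 1 SD between libraries and 42 by more. Depth limits genes of few reads: 3 reads are 13.5 to 50.4 CPM.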

Other observations

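Ribosomal protein genes had small differences, nearly all of one sign. Of 79 listed 74 were tested, and 71 had a positive difference with a median of 0.80 (1.24 without both libraries numbered 3), while none passed the limma test. Their sum was 122615, 46415 and 61929 CPM over nuclear reads in the CD8 T libraries and 47403, 18906 and 65669 in the dendritic ones, so the library numbered 2 was the lowest of each sort.

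The Gimap genes, GTPases of lymphocytes that neighbour each other on chromosome 6, had 0 reads in dendritic libraries 1 and 2 for all 8 members, and summed to 181, 385 and 92 reads in the CD8 T libraries and 140 in dendritic library 3. These were picked out after their values were seen.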
